A study of Mus musculus with 8 samples.

Results

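The genes described here are the p53 family and growth arrest genes, 10 in all, chosen by gene symbol from the 53819 symbols of the deposited count table: Trp53, Trp63, Trp73, Mdm2, Cdkn1a, Ccng1, Trp53inp1, Gadd45a, Gadd45b and Gadd45g. All 10 were in the table, and 9 had enough counts to be among the 14070 genes tested. Trp73 did not. Messenger RNA was measured in the quadriceps muscle of wild-type C57BL/6J mice, 8 weeks old at the start. The tumor group (4 mice) carried B0092, a head and neck squamous cell carcinoma line injected under the skin of the neck as 500000 cells, and the control group (4 mice) received the PBS vehicle. Muscle was taken on day 36, when the series text places the weight loss at about 10%. The model rests on 1 carcinoma line, and no source used here gave the sex of the mice.

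The p53 protein is a transcription factor that is held at a low level by the ubiquitin ligase MDM2 and is stabilised when DNA is damaged or the cell is stressed, so its activity is set mostly after translation and not by its messenger RNA. Its relatives p63 and p73 bind the same kind of DNA site, and p63 is best known as a regulator of squamous epithelium. Active p53 raises the cyclin-dependent kinase inhibitor p21 (Cdkn1a), the stress sensor Gadd45a, the cyclin G1 gene Ccng1, the nuclear protein gene Trp53inp1 and, as feedback, Mdm2. In skeletal muscle, Cdkn1a and Gadd45a are also known to rise during disuse, denervation and fasting, under ATF4, FOXO and histone deacetylase signals.

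Of the 9 tested genes, 4 rose in tumor-bearing mice (Cdkn1a, Gadd45a, Trp63 and Trp53inp1) and 1 fell (Ccng1) past a threshold of 0.05 on p-values from edgeR, adjusted by Benjamini-Hochberg over all genes tested. Over all 14070 genes the test called 19.8%, of which 1552 genes were higher (11.0% of those tested) and 1229 lower (8.73%). With upper-quartile scaling of the libraries these totals were 1169 higher and 1547 lower, and the calls of the 9 genes did not change. The median log2 fold change was 0.56 over the 9 genes and 0.00 over all genes (0.00288). In 6 of the 9 genes the tumor values lay entirely on one side of the control values, where 25.0% of all tested genes did so. The genes were picked with earlier results of these libraries known, so these counts describe the group and are not evidence about p53 activity.

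**Figure D1:**
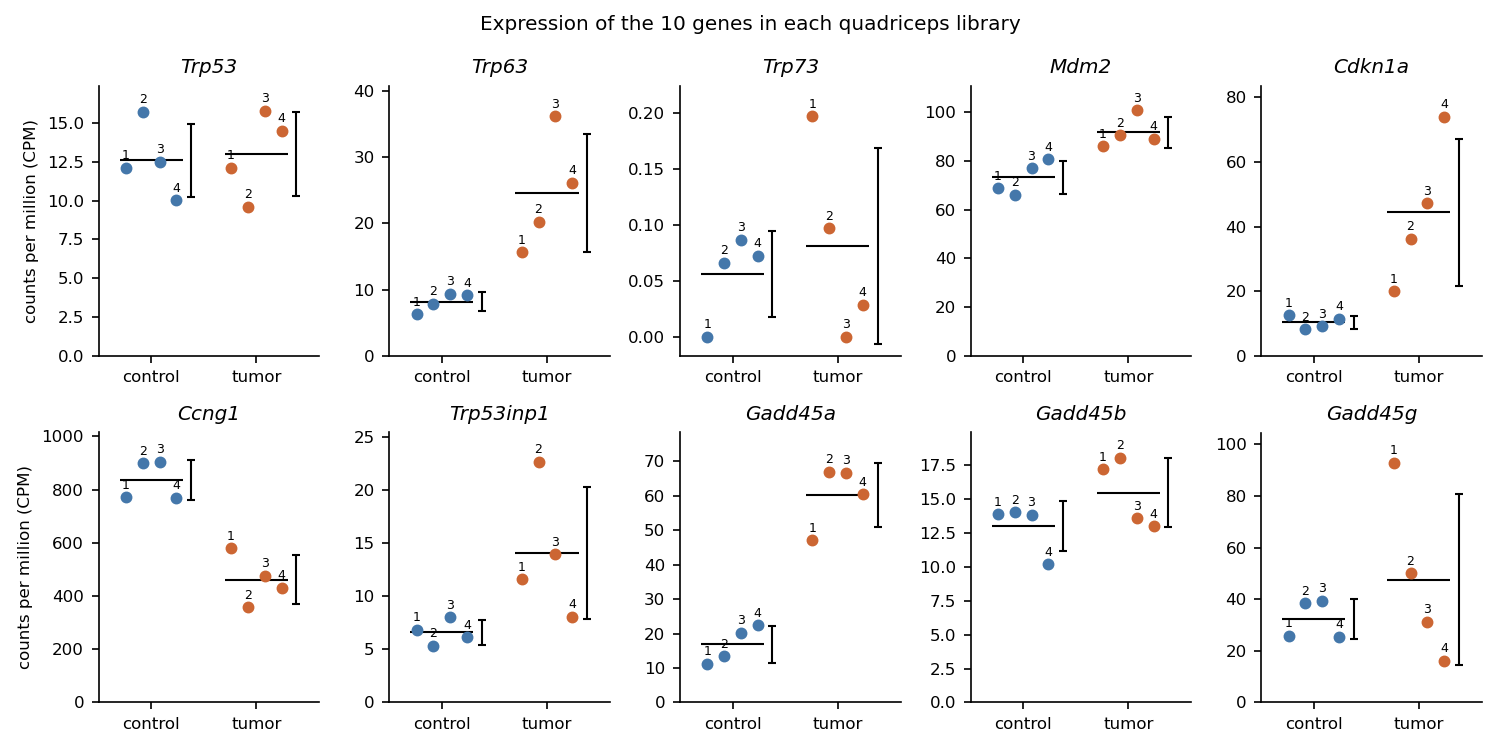
Level of each of the 10 genes in CPM (counts per 1000000 library counts after scaling, vertical axes, each starting at 0 except that of Trp73, whose SD bar reaches below it) in the 4 control (blue) and 4 tumor (orange) libraries; points are single mice with their replicate number, lines the group mean and bars 1 SD. Cdkn1a, Gadd45a and Trp63 in tumor mice sit above every control value, Ccng1 sits below, and Trp53 and Gadd45g spread across the control range.

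Sequence upstream of these genes was taken from RefSeq (GRCm38.p6, an older build than the GRCm39 of the counts), as windows from 250 bases before to 50 bases after each listed transcript start. Windows were found for 8 of the 10 genes (10 windows), all but Trp63 and Trp53inp1. A p53 response element without a spacer, 20 bases long and with at most 1 mismatch to the p53 consensus, was searched on both strands. It was found in 29 of all 32851 windows (0.088%), among them the upstream start of Cdkn1a and the start of Ccng1. These are shown because they hold the same kind of site while one gene rose and the other fell. Capitals mark the matched site.
Cdkn1a, upstream start, chr17:29090729-29091028, plus strand: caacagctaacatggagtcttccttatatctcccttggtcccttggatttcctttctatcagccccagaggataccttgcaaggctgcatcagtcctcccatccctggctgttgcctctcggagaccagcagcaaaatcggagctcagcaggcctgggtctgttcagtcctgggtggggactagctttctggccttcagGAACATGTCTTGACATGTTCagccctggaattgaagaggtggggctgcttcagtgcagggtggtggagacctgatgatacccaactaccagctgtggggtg
Ccng1, chr11:40755237-40755536, minus strand: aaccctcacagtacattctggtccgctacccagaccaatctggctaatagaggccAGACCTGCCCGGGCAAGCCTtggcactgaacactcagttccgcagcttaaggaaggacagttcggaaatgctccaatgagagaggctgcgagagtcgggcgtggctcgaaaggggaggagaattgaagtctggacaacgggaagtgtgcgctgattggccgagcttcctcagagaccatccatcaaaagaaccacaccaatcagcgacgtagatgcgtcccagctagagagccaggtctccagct
The Cdkn1a site starts 51 bases before that transcript start and the Ccng1 site 195 bases before its start, each with 1 mismatch. The second Cdkn1a window, 2790 bases further downstream, held no match, and neither did those of Trp53, Trp73, Mdm2 or the Gadd45 genes. Sites with a spacer, and sites outside these windows, were not searched, so a gene without a match may still hold one. Some other motifs were looked for in the same windows, on both strands, after the sequences had been seen. A FOXO core (GTAAACA, in 3.65% of all windows) was in that of Mdm2 alone among these genes, and an ATF4-C/EBP composite (TGATGNAA, in 3.97% of all windows) in that of Gadd45g alone. The TATA box letters (TATAAA, in 13.6% of all windows) were in those of Gadd45b and Gadd45g, at -46 and -27 from the start. In the window of Trp53 they were found only on the opposite strand, at -248. A match describes letters only: no binding was measured, and counts per gene do not tell which start was used.

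Trp53 itself did not pass the test. Its level, in counts per 1000000 library counts after scaling (CPM), was 12.1, 15.7, 12.5 and 10.0 CPM in control libraries 1 to 4 and 12.1, 9.61, 15.8 and 14.5 CPM in tumor libraries 1 to 4. The groups overlapped fully, with means of 12.6 ± 2.35 and 13.0 ± 2.72 CPM (SD, n = 4 each). The log2 fold change was 0.05 ± 0.19 (SE, adjusted p = 0.886), and its sign turned with the scaling: it was -0.0302 with upper-quartile scaling.

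Trp63, the p63 gene, rose 3.01-fold. It stood at 6.27, 7.87, 9.40 and 9.13 CPM in controls and at 15.7, 20.3, 36.2 and 26.2 CPM in tumor mice. Every tumor library was above every control, and tumor library 3 was the highest. The log2 fold change was 1.59 ± 0.25 (SE, adjusted p = 0.00484), and Trp63 passed the threshold with each of the 8 libraries left out in turn (2.54-fold to 3.38-fold). Because p63 marks squamous epithelium and the tumor is squamous, the markers of that tissue were read in the same libraries. Of 10 squamous markers, the keratin genes Krt5, Krt14, Krt15, Krt6a and Krt17 and the desmoglein gene Dsg3 had 0 counts in all 8 libraries. The summed level of the list was 0.993 to 2.06 CPM in controls and 0.546 to 1.46 CPM in tumor mice, most of it from the laminin gene Lama3. The gene has long and short protein forms from separate starts, which a count per gene does not tell apart.

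The ratio of Trp63 to Trp53, which does not depend on scaling, was 0.517, 0.501, 0.752 and 0.910 in controls and 1.30, 2.11, 2.30 and 1.81 in tumor mice. On the log2 scale it was higher by 1.5 in tumor mice (two-sided exact permutation p = 0.0286, the smallest that 4 against 4 allows, and 0.0429 adjusted over 3 ratios). The ratios were chosen after the values were seen, so these p-values are descriptive only. The adjusted exact p became 0.0857 without tumor library 2, 3 or 4, a value that depends also on the p-values of the other ratios. The groups did not overlap in any of these fits, as the lowest tumor ratio was 1.30 and the highest control ratio 0.910. The difference stayed between 1.38 and 1.67 without any single library. Trp73, the third family member, had between 0 and 6 counts per library. It was therefore given no test, and in a fit without the count filter its log2 fold change was 0.46 ± 1.36 (SE, adjusted p = 0.861).

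Mdm2, the ligase that degrades p53 and is itself induced by it, did not pass. It was at 68.9, 66.1, 77.0 and 80.7 CPM in controls and 86.1, 90.4, 101 and 89.1 CPM in tumor mice. The groups did not overlap, but the difference was small (1.25-fold, log2 fold change 0.32 ± 0.11 SE, adjusted p = 0.069). It passed with the DESeq2 test (adjusted p = 0.0351) and with limma-voom with quality weights (adjusted p = 0.00741). These settings also called the most genes in all, 26.6% and 35.4%, against 19.8% in the main test. Mdm2 did not pass in any of the other 16 alternatives.

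Cdkn1a, whose protein p21 blocks cyclin-dependent kinases and thereby the cell cycle, rose in all 4 tumor mice. Controls had 12.5, 8.24, 9.12 and 11.5 CPM, and tumor mice 19.9, 36.3, 47.2 and 74.0 CPM. All tumor values were above all control values, but they spread 3.71-fold among themselves, against 1.52-fold in controls. The rise was 4.29-fold (log2 fold change 2.10 ± 0.35 SE, adjusted p = 0.00538). It passed without each single library, at 3.32-fold without tumor library 4 and up to 5.08-fold without tumor library 1.

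Ccng1, the gene of cyclin G1 and a long-known p53 target, moved the other way. Its level was 772, 899, 905 and 770 CPM in controls and 581, 359, 476 and 432 CPM in tumor mice. The highest tumor library was below the lowest control. The level fell 1.81-fold (log2 fold change -0.86 ± 0.17 SE, adjusted p = 0.0102), and it passed in all 18 alternatives. In bulk muscle, fewer cells of a type and less of the RNA per cell cannot be told apart.

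Trp53inp1, which encodes a nuclear protein that promotes p53 activity and autophagy, rose 2.13-fold with a wide spread. Controls lay at 6.86, 5.36, 8.04 and 6.12 CPM, and tumor mice at 11.6, 22.7, 13.9 and 8.07 CPM. Tumor library 4 was only just above the highest control, and tumor library 2 was the highest. The log2 fold change was 1.09 ± 0.29 (SE, adjusted p = 0.0284). Trp53inp1 did not keep this call when control library 1 (adjusted p = 0.077), 2 (0.0802) or 4 (0.0608) or tumor library 3 (0.0733) was removed, and its log2 fold change was 0.73 without tumor library 2. Control library 4 and tumor library 2 differ from their groups in fibre type: the log2 ratio of Myh4, the fastest myosin, to slower myosins (Myh1, Myh2 and Myh7 summed) was 0.87 and 2.03 in them and 2.95 to 6.51 in the others. Without both, Trp53inp1 missed the threshold (log2 fold change 0.72, adjusted p = 0.0628), while Trp63, Cdkn1a, Gadd45a and Ccng1 passed it. Limma-voom did not call Trp53inp1 either (adjusted p = 0.0519).

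**Figure D2:**
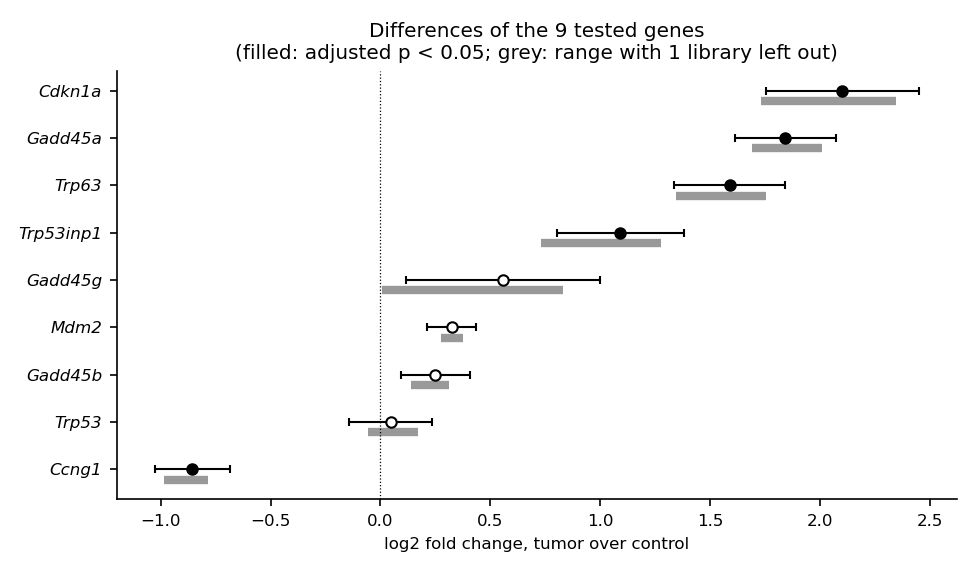
Log2 fold change of tumor over control (horizontal axis) for the 9 tested genes, with bars of 1 SE; filled points passed an adjusted p of 0.05 and grey bars span the values with 1 library left out. Cdkn1a, Gadd45a, Trp63 and Trp53inp1 lie right of 0, Ccng1 lies left of it, and the grey bar of Trp53 crosses 0.

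The Gadd45 genes encode small paralogous proteins that bind p21, PCNA and the kinase MAP3K4, which leads to p38 and JNK. Gadd45a, the member best known as a p53, FOXO and ATF4 target, stood at 11.2, 13.4, 20.2 and 22.4 CPM in controls and 47.1, 67.0, 66.7 and 60.5 CPM in tumor mice. No other tested member had a smaller p, and tumor mice varied less around their mean (coefficient of variation 15.4%) than in Cdkn1a (51.2%). The rise was 3.59-fold (log2 fold change 1.84 ± 0.23 SE, adjusted p = 0.00294). The fold was 3.23 to 4.03 with 1 library left out, and Gadd45a passed in all 18 alternatives.

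Gadd45b, known for its response to NF-kB and TGF-beta signals, was at 13.9, 14.0, 13.9 and 10.2 CPM in controls and at 17.2, 18.0, 13.6 and 13.0 CPM in tumor mice. The groups overlapped and Gadd45b missed the threshold, at a log2 fold change of 0.25 ± 0.16 (SE, adjusted p = 0.291). Gadd45g, known as a cytokine-responsive member, had 25.9, 38.6, 39.4 and 25.5 CPM in controls and 92.9, 50.1, 31.3 and 16.1 CPM in tumor mice. Its tumor values ran from below the lowest control to well above the highest, a 5.76-fold range. Gadd45g missed the threshold at a log2 fold change of 0.56 ± 0.44 (SE, adjusted p = 0.400), and without tumor library 1 the difference was 0.01.

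Ratios within a library, chosen after the values were seen, compared the paralogs directly, so their p-values are descriptive only. Gadd45a over Gadd45b was 0.810, 0.957, 1.46 and 2.19 in controls and 2.73, 3.71, 4.91 and 4.65 in tumor mice, without overlap. The log2 ratio was higher by 1.64 in tumor mice (two-sided exact permutation p = 0.0286, adjusted 0.0429). The adjusted exact p was 0.0571 without tumor library 1 and 0.0857 without tumor library 2, 3 or 4. Gadd45a over Gadd45g was 0.434, 0.348, 0.514 and 0.878 in controls and 0.507, 1.34, 2.13 and 3.75 in tumor mice. Tumor library 1 lay inside the control range there, and the log2 difference of 1.58 did not pass (two-sided exact permutation p = 0.0857). Without that library it was 2.11 (adjusted exact p = 0.0429).

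Per kilobase of merged exons, Gadd45a made up 21.1%, 19.2%, 26.1% and 36.9% of the Gadd45 sum in controls. In tumor mice its share was 27.9%, 47.7%, 58.2% and 66.8%, and tumor library 1 fell within the controls. The mean share went from 25.8% ± 7.94 to 50.2% ± 16.8 (SD, n = 4 in each group; the exact permutation test, two-sided, gave p = 0.0571). The share of Gadd45b was 18.0% ± 3.69 in controls and 11.0% ± 1.55 in tumor mice, without overlap (exact p = 0.0286), and that of Gadd45g was 56.1% ± 6.21 and 38.8% ± 18.1 (exact p = 0.171). None of the 3 shares passed after adjustment (0.0857, 0.0857 and 0.171). Without tumor library 1, the shares of Gadd45a (adjusted exact p = 0.0429) and Gadd45g (adjusted exact p = 0.0429) did.

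**Figure D3:**
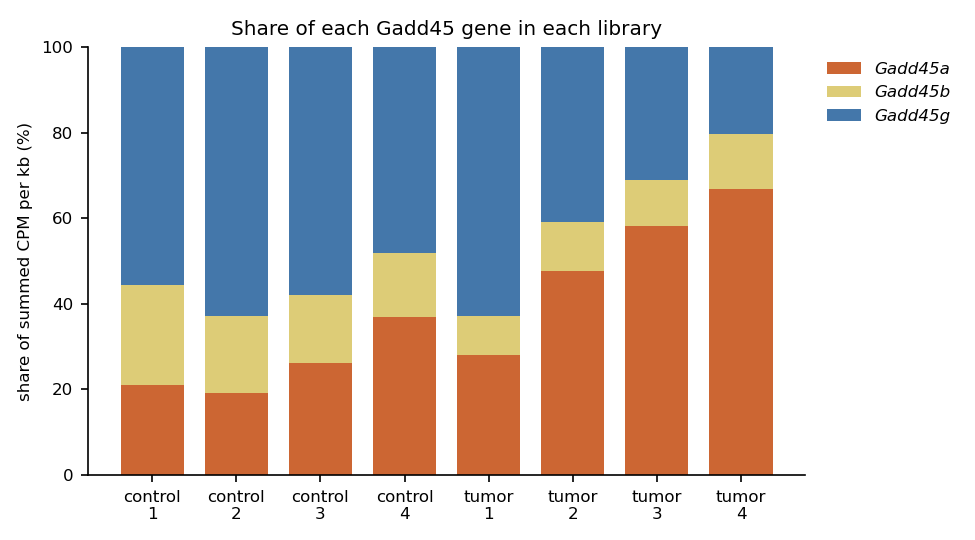
Share of Gadd45a, Gadd45b and Gadd45g in the sum of their levels per kilobase (vertical axis, percent) in each of the 8 libraries (horizontal axis). Gadd45a makes up 19.2% to 36.9% in controls and 47.7% to 66.8% in tumor libraries 2 to 4, while tumor library 1 (27.9%) lies within the control range.

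Set beside each other per kilobase, Ccng1 had the highest level of the 10 genes in both groups (238 ± 21.5 CPM per kb in controls, 132 ± 26.4 in tumor mice, SD, n = 4). In controls Gadd45g (30.2 ± 7.17) and Mdm2 (23.3 ± 2.17) came next and did not differ beyond their SDs, nor did Gadd45a (13.7 ± 4.35) and Gadd45b (9.47 ± 1.35). Trp53 (6.74 ± 1.26) and Cdkn1a (3.81 ± 0.737) followed. Trp53inp1 (1.22 ± 0.212) and Trp63 (0.974 ± 0.171) overlapped within 1 SD, and Trp73 was last (0.0106). In tumor mice Gadd45a (49.3 ± 7.62) and Gadd45g (44.5 ± 31.0) had overlapping 1 SD ranges, as had Gadd45g and Mdm2 (29.1 ± 2.02), Cdkn1a (16.3 ± 8.36) and Gadd45b (11.3 ± 1.85), and Trp63 (2.93 ± 1.06) and Trp53inp1 (2.60 ± 1.15). Merged exons overstate the length of genes with many transcript forms, such as Trp63, whose level per kb is then understated.

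The genes whose log2 CPM followed that of Gadd45a most closely over the 8 libraries were Actr8 (Pearson r = 0.992), Napb (0.991), Ppig (0.99), Nop14 (0.988) and Pwp1 (0.988). After the mean of each group was taken out, r was still 0.878 to 0.928. All 5 rose, by 1.70-fold (Pwp1) to 3.20-fold (Napb). These r values describe 8 libraries that share the group difference and carry no test.

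The other genes of the pathway were read from lists written down with the members. Among 21 tested regulators of p53, 4 rose and 1 fell, a share of 23.8% against 19.8% over all genes, with a median log2 fold change of 0.23. The histone chaperone gene Daxx (2.23-fold), the acetyltransferase gene Kat5 (1.6-fold) and the ribosomal protein genes Rpl11 (1.56-fold) and Rpl5 (1.48-fold), whose free proteins inhibit MDM2, rose. The checkpoint kinase gene Chek2, named after its values were seen, fell 2.50-fold. Rpl11, Rpl5 and Chek2 each lost their call when control library 1, control library 2 or tumor library 3 was removed, with an adjusted p between 0.0594 and 0.0864. The same held for Rpl11 (0.0565) and Chek2 (0.0987) without control library 3, and for Rpl5 (0.0533) and Chek2 (0.0681) without control library 4. Mdm4, the partner of MDM2, which was named after its values were seen, was at 28.2 ± 2.81 CPM in controls and 36.3 ± 9.71 CPM in tumor mice (SD, n = 4 each; edgeR adjusted p = 0.224).

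Most p53 targets beyond the members did not pass. Of 19 tested targets of growth arrest and repair, 2 rose and 0 fell (edgeR, where 6 higher and 2 lower had an unadjusted p under 0.05, DESeq2 called 4 and 2, limma-voom 2 and 0, and limma-voom with quality weights 6 and 1). The share of 10.5% stands beside 19.8% over all genes. DESeq2 called 26.6% of all genes, limma-voom 19.7% and limma-voom with quality weights 35.4%. In edgeR, 2618 higher and 2306 lower genes of all 14070 had an unadjusted p under 0.05. Ddit4, an inhibitor of mTORC1, rose 13.0-fold (8.36-fold without tumor library 2) and the DNA damage sensor gene Xpc 1.45-fold. Xpc lost its call when any 1 of control libraries 1, 2 and 3 or of tumor libraries 1, 2 and 3 was removed, with an adjusted p between 0.0511 and 0.0988. Of 10 tested targets of apoptosis, 1 rose and 1 fell, a share of 20% near the 19.8% over all genes. The receptor gene Eda2r rose 4.12-fold, from 17.3 to 40.2 CPM in controls to 65.3 to 185 CPM in tumor mice, and the ferrireductase gene Steap3 fell 2.39-fold. The apoptosis effector gene Bax (log2 fold change 0.49 ± 0.22 SE, adjusted p = 0.142) and the BH3 gene Bbc3 (0.87 ± 0.45, adjusted p = 0.200), 2 further targets chosen after their values were seen, did not pass.

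**Figure D4:**
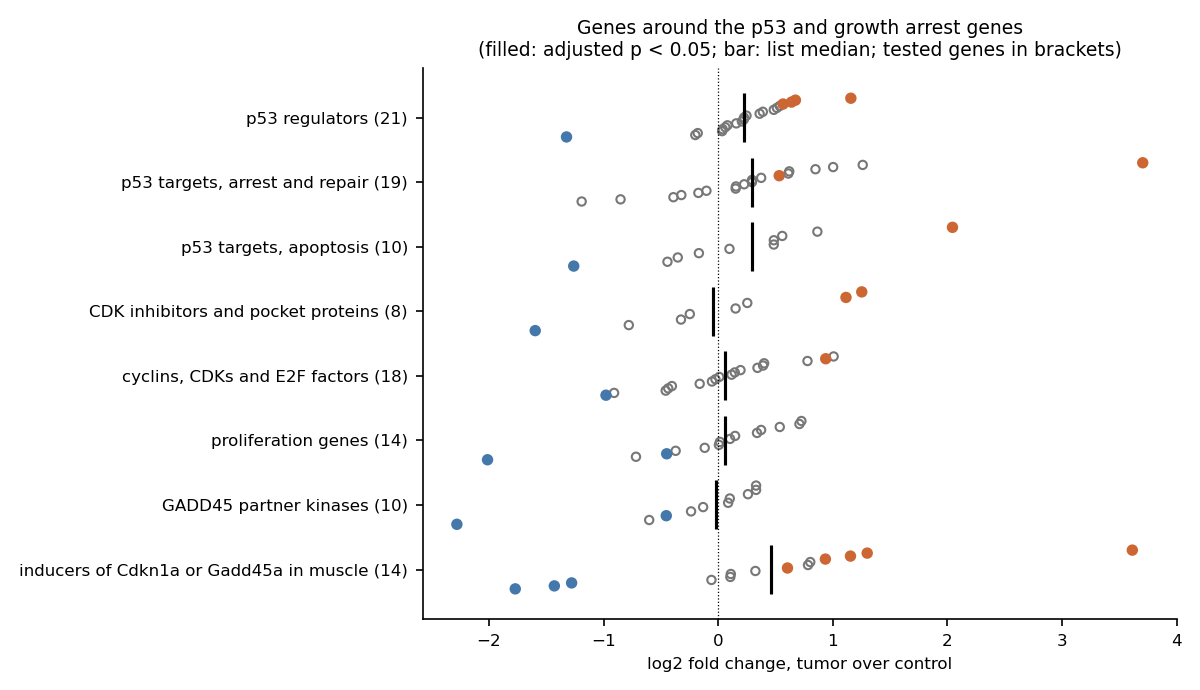
Log2 fold change of tumor over control (horizontal axis) for each tested gene of 8 lists around the p53 and growth arrest genes; filled points passed an adjusted p of 0.05 (orange higher, blue lower) and black bars are list medians. Calls lie on both sides of 0 in most lists, with Ddit4 and the transcription factor gene Cebpd farthest to the right and the kinase gene Map2k6 farthest to the left.

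Among 8 tested CDK inhibitors and pocket proteins, which like p21 restrain the cell cycle, 2 rose, 1 fell and 5 did not pass, a share of 37.5% beside 19.8% over all genes. The retinoblastoma gene Rb1 (2.38-fold) and its relative Rbl2 (2.17-fold) rose, and the inhibitor gene Cdkn2b fell 3.02-fold. Rbl2 was not called without control library 1 (adjusted p = 0.0512). Cdkn1b, the gene of the p21 relative p27, also named after its values were seen, missed the threshold at a log2 fold change of 0.25 ± 0.16 (SE, adjusted p = 0.284). Of 18 tested cyclin, CDK and E2F genes, E2f4, a repressive E2F, rose 1.92-fold and the cyclin gene Ccnd2 fell 1.97-fold, a share of 11.1%. E2f4 was lost without control library 1 or tumor library 3 (adjusted p = 0.0653 and 0.0593) and Ccnd2 when control library 1 or 2 or tumor library 3 was removed (0.0883 to 0.0987).

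Of 14 tested proliferation genes, 0 rose and 2 fell (edgeR, with 0 higher and 2 lower at an unadjusted p under 0.05, DESeq2 0 and 2, limma-voom 0 and 1, and 1 and 2 with quality weights). The share called was 14.3%, beside 19.8% over all genes, and 11.0% of all genes were called higher. Over all genes DESeq2 called 26.6%, limma-voom 19.7% and limma-voom with quality weights 35.4%. The mitotic kinase gene Aurka fell 4.03-fold and the ribonucleotide reductase gene Rrm1 1.36-fold. Both lost their call on removal of control library 1, control library 2 or tumor library 3, with an adjusted p between 0.0596 and 0.0864, and Aurka also without control library 3 (0.0707) or tumor library 4 (0.0583). The groups overlapped for Aurka, as control library 4 (2.93 CPM) lay within the tumor range of 1.14 to 4.67 CPM. Mki67, the usual proliferation marker, added after its values were seen, was at 1.35 ± 1.05 CPM in controls and 2.24 ± 1.84 CPM in tumor mice (adjusted p = 0.659).

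On the kinase side of the GADD45 proteins, 0 of 10 genes rose and 2 fell (edgeR, with 1 higher and 2 lower at an unadjusted p under 0.05, DESeq2 1 and 2, limma-voom 0 and 2, and 2 and 2 with quality weights). That share of 20% was near the 19.8% over all genes. Over all genes DESeq2 called 26.6%, limma-voom 19.7% and limma-voom with quality weights 35.4%. Map2k6, which activates p38, fell 4.85-fold from 31.1 ± 9.86 to 6.42 ± 2.65 CPM (SD, n = 4 each). The p38 gene Mapk14 fell 1.37-fold and lost its call on removal of control library 1, 2 or 3 or of tumor library 3, with an adjusted p between 0.0592 and 0.0871. Map3k4, the direct partner, named after its values were seen, had a log2 fold change of 0.0871 ± 0.14 (SE, adjusted p = 0.700).

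Among 14 genes listed as possible regulators of Cdkn1a or Gadd45a in muscle, 5 rose and 3 fell. With 1 library left out, 1 (without control library 1) to 6 rose. Cebpd (12.2-fold) and the SMAD partner gene Smad4 (1.52-fold) rose, and the myogenic factor gene Myod1 (2.69-fold) and the SMAD gene Smad3 (3.41-fold) fell. Smad4 was not called without control library 1 (adjusted p = 0.0517). The FOXO genes Foxo1 (2.46-fold, adjusted p = 0.0495) and Foxo3 (1.91-fold, adjusted p = 0.0305) and the transcription factor gene Klf15 (2.23-fold, adjusted p = 0.0282) also rose, and the deacetylase gene Hdac9 fell 2.43-fold (adjusted p = 0.0197). Removal of control library 1, 2 or 3 or of tumor library 2 or 3 ended the call of Foxo1, Foxo3 and Klf15, with an adjusted p between 0.0531 and 0.118, as did removal of control library 4 for Foxo1 (0.0874). Hdac9 lost its call on removal of control library 2 (0.0513) or tumor library 3 (0.0643). Without tumor library 2 the log2 fold change of Foxo1 was 0.66, against 1.30 with it, and Foxo1 was not called with upper-quartile scaling (adjusted p = 0.0577) or DESeq2 size factors (0.0511). Atf4, which drives Gadd45a in disused muscle, missed the threshold at the RNA level (a log2 difference of 0.32 ± 0.21 SE, adjusted p = 0.312), as did the deacetylase gene Hdac4 (0.11 ± 0.13, adjusted p = 0.571). Foxo1, Foxo3, Klf15, Hdac9, Atf4 and Hdac4 were added after their values were seen. The list was drawn up with results of these libraries known, so its share of 57.1% supports nothing.

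The libraries held 28436254 to 36139478 estimated counts. Myofibre markers summed to 114700 to 190900 CPM over 8 genes in controls and 79630 to 186200 CPM in tumor mice. The lowest sum was in tumor library 4, which had the highest Cdkn1a, and 1 of the 8, the skeletal actin gene Acta1, fell 2.35-fold (adjusted p = 0.0368). Of the endothelial markers 3 of 5 fell (Kdr, Emcn and Tie1), where 8.73% of all genes were called lower. Their list summed to 62.5 to 113 CPM in tumor mice against 123 to 192 CPM in controls. Cdh5 (edgeR adjusted p = 0.0542) and Pecam1 (adjusted p = 0.547) were not called, and the groups overlapped for Pecam1 and Tie1. Neutrophil markers were low in both groups (1.51 to 4.48 against 0.199 to 1.34 CPM, 1 of 2 tested rose, Ly6g at 0), and 1 of 4 tested satellite cell markers, Cdh15, rose (summed level 62.6 to 95.4 against 45.1 to 61.4 CPM). The higher sum came from Cdh15, with a mean of 21.0 CPM in controls and 57.3 CPM in tumor mice. The means of Sdc4 (27.0 and 19.7 CPM), Pax7 (2.47 and 2.32 CPM) and Myf5 (0.869 and 0.846 CPM) were lower in tumor mice, without a call. Macrophage markers overlapped (31.1 to 126 against 42.5 to 72.5 CPM), as did lymphocyte, fibro-adipogenic, adipocyte and Schwann markers. The highest macrophage sum (126 CPM) was also in tumor library 4. The part of these differences in the changes of Cdkn1a, Gadd45a, Trp63, Trp53inp1 and Ccng1 was not tested.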

How the data were processed

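RNA from the quadriceps of 8 mice (4 control, 4 tumor) was sequenced as 1 library per mouse, with libraries made by the Universal Plus mRNA-Seq kit, per the labels' protocols. The authors deposited estimated counts per gene symbol, 9% of them not whole. The build was GRCm39 and the software comprised Salmon 1.10.1, STAR 2.7.9a, R 4.2.2, cutadapt 3.4 and Trim Galore 0.6.7, per the submitters' processing notes. No source used here gave their roles, the annotation or the strand setting, so reads from overlapping, antisense or near-identical genes cannot be told apart. The labels name the carcinoma line also for control libraries, and groups were taken from the sample titles.

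Counts were rounded, filtered with filterByExpr (minimum count 10) and scaled by TMM. The groups were compared by quasi-likelihood F tests in edgeR 4.0.16 under R 4.3.3, two-sided, with Benjamini-Hochberg adjustment over 14070 genes and a threshold of 0.05. SEs are the log2 fold change over the square root of F. CPM are TMM-scaled. Single values were compared by exact permutation over the 70 splits. Alternatives used DESeq2 1.42.0, limma 3.58.1, other scalings and filters, a replicate block, a fibre type covariate and left-out libraries. Lengths came from GENCODE M21 (GRCm38). The fitting steps were tested on simulated data.

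The members and lists were chosen with earlier results of these data known. Named were all members, of each list up to 4 called genes with the smallest p, and the 5 genes most correlated with the member of smallest p. Further genes are marked where they are named.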

Additional observations from a re-analysis of the deposited data

Results flagged for a closer look

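Among 70 pairs of a gene and a group, 4 had 1 library far from the other 3, where chance alone gives about 1 in 20. That would be 3.5 pairs, so the number found is near it. The pairs covered the tested members and the list genes that passed the threshold. Gadd45b was 10.2 CPM in control library 4 and 13.9 to 14.0 CPM in the other controls. Chek2 was 0.287 CPM in tumor library 4, against 0.675 to 0.724 CPM in the other tumor libraries. Foxo1 was 15.2 CPM in control library 2 and 17.9 to 18.1 CPM in the others. Smad4 was 45.9 CPM in control library 1 and 54.2 to 54.8 CPM in the others.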

How the results depend on the processing

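Cdkn1a, Gadd45a, Trp63 and Ccng1 kept their direction and their call in all 18 alternatives, and Gadd45b and Gadd45g stayed without a call. Trp53 was never called, and its log2 fold change turned negative with upper-quartile scaling (-0.0302), with the Myh4 ratio as a covariate (-0.0856) and without control library 4 (-0.0477), tumor library 3 (-0.0581) or tumor library 4 (-0.0213), with 0.171 as the highest without 1 library. The members called were 3 to 4 higher and 1 lower with 1 library left out. Over all genes, leaving out 1 library gave 630 to 1551 higher and 480 to 1450 lower genes (removing control library 1 left 1110 calls in all, removing control library 2 left 1373 and removing tumor library 3 left 1190, against 2781 with all 8), and limma-voom with quality weights 2616 and 2366. Among genes of the 8 lists, 15 were higher and 11 lower. The share called in a list ran from 10.5% to 57.1%, beside 19.8% over all genes. Leaving out 1 library gave 6 (control library 1) to 23 (tumor library 4) higher and 5 (control library 2 or tumor library 3) to 12 lower, and 31 were higher with quality weights. With the replicate block, 1014 genes in all and 9 in the lists were higher, and of the members only Trp53inp1 lost its call (adjusted p = 0.0563). Same-numbered libraries correlated at 0.0281, 0.131, 0.197 and 0.0158 after group means were removed, so the numbers were not taken as pairs. With 1 library left out, the difference in share ran from 18.8 to 31.8 points for Gadd45a, -8.04 to -5.29 for Gadd45b and -25.4 to -11.2 for Gadd45g, and the log2 ratios differed by 1.38 to 1.67 (Trp63/Trp53), 1.43 to 1.91 (Gadd45a/Gadd45b) and 1.14 to 2.11 (Gadd45a/Gadd45g). The causes were not tested. Trp73 had 6 counts or fewer per library and was not tested in the main fit.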

Other observations

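Within the tumor group, Cdkn1a and Gadd45g had opposite orders. From tumor library 1 to 4, Cdkn1a read 19.9, 36.3, 47.2 and 74.0 CPM and Gadd45g read 92.9, 50.1, 31.3 and 16.1 CPM. The retinoblastoma gene Rb1 had the order of Cdkn1a, at 20.8, 28.5, 38.2 and 54.0 CPM. In controls, Cdkn1a was lowest in libraries 2 and 3 (8.24 and 9.12 CPM), where Gadd45g was highest (38.6 and 39.4 CPM). The pattern was picked after the values were seen, rests on 4 mice a group and carries no test.

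Ddit4 and Sesn1, p53 targets that also respond to FOXO factors, shared their highest tumor library with Trp53inp1. In tumor libraries 1 to 4, Ddit4 was 37.7, 65.9, 18.2 and 8.04 CPM and Sesn1 was 44.1, 93.0, 58.6 and 16.9 CPM. Each was highest in library 2 and lowest in library 4, as was Trp53inp1 (22.7 and 8.07 CPM). Foxo1, Foxo3, Klf15, Rbl2, Atf4 and Cebpb were also highest in tumor library 2. That library stood apart from the other tumor libraries in adipocyte markers, which summed to 230.3 CPM against 8.58 to 14.5 CPM. Its log2 Myh4 ratio was 2.03, against 4.32 to 6.51 in the other tumor libraries. In control libraries 1 to 4 the adipocyte sums were 138, 202, 66.5 and 4.17 CPM. The part of adipocyte tissue and fibre type in the pattern was not tested, and the pattern was picked after the values were seen. Sesn1 did not pass over all 8 libraries (log2 fold change 1.26 ± 0.40 SE, adjusted p = 0.0536, edgeR).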
